A study of Mus musculus with 8 samples.

Results

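Mouse pro-B cells carrying a Bcl2 transgene and kept in interleukin-7 (IL-7) were compared with pro-B cells taken from bone marrow, in cells whose Setdb1 gene was not deleted. The comparison rests on 4 of the 8 arrays of the study, chosen by their labels, with 2 arrays of cultured and 2 of marrow control cells. It was described over 16050 of the 20416 genes named on the array, those bright enough to be tested. Control cells are labelled Setdb1 C/C and wild type (Wt), and the other 4 arrays hold cells with a deleted Setdb1 gene (D/D), which encodes a histone H3 lysine 9 methyltransferase. The marrow control cells had no Bcl2 transgene. The cultured control cells were Bcl2-transgenic and were kept for 4 days in medium with 5 ng/µl IL-7, as the labels write it. The deleted cells form the same pair of groups, 2 arrays from marrow without the transgene and 2 from culture with it. Culture and transgene always went together, so their effects cannot be told apart. All cells were purified by fluorescence-activated cell sorting as pro-B cells. The marrow samples carry the same growth protocol as the cultured ones, 4 days in IL-7 included, whereas the design text has them taken from the marrow with no culture. The labels used here give neither the Cre that deletes Setdb1 nor the promoter of the transgene, nor the age of the animals. The labels do not state whether replicate samples were separate animals or cultures, and the p-values then cover the spread between these samples alone, which may be a technical one.

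Pro-B cells are the marrow precursors that rearrange the immunoglobulin heavy chain locus. They depend on IL-7, whose receptor signals through Jak1 and Jak3 to the transcription factor STAT5. STAT5 induces the feedback inhibitors of the SOCS family and the Pim kinases, and growth signals of this kind go with uptake of amino acids and iron and with synthesis of lipids. The transcription factor SREBP2, made from the gene Srebf2, turns on the enzymes of cholesterol synthesis, and Atf4 turns on genes for amino acid uptake and synthesis, among them Asns. Bcl2 protects cells from the death that follows the loss of survival signals. A marrow sort can also hold RNA of myeloid cells, whose granule proteins are very strongly transcribed.

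Promoter stretches of 4 genes are shown because they hold the known motifs of the pathways described here. They come from the RefSeq promoter table of build GRCm38.p6 and run 5′ to 3′ along the strand of the gene, with the motif in capitals. The Hmgcs1 stretch is chr13:119690101-119690350 on the plus strand, and the Srebf2 stretch is chr15:82147019-82147268 on the plus strand, each the 250 bases before the start of transcription. The Cish stretch is chr9:107296409-107296678 on the plus strand, with 250 bases before and 20 after the start. The Asns stretch is chr6:7693210-7693459 on the minus strand, the 250 bases before the start.
Hmgcs1: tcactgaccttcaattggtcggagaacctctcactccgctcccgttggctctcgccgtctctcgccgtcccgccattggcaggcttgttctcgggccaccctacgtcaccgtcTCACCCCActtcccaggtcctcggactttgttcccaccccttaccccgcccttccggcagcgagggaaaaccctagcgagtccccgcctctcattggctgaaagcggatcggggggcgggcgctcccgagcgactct
Srebf2: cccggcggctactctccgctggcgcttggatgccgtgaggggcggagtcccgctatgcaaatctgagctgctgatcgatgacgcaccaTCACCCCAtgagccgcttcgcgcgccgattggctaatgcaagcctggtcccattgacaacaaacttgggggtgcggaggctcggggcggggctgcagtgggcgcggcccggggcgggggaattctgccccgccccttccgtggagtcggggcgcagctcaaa
Cish: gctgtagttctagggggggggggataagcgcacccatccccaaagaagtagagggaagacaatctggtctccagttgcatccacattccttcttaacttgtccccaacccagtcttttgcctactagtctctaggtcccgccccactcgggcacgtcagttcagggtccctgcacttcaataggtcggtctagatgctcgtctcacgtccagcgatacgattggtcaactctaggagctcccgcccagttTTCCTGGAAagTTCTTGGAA
Asns: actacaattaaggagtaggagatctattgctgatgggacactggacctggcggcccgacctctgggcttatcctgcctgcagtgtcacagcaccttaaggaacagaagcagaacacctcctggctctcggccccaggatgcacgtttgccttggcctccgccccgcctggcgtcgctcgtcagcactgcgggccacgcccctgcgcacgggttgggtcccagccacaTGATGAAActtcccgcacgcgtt
Hmgcs1 and Srebf2 hold TCACCCCA, a form of the sterol regulatory element, with its first base at -137 and -162 from the start. Cish holds TTCNNNGAA, the palindrome that STAT5 binds, at bases 1 and 12 from the start, and the copies do not overlap. Asns holds TGATGNAA, the core of the element that Atf4 with C/EBP proteins binds, with its first base at -23. Both strands were searched over each whole entry, and the motifs were chosen after promoters of these genes had been searched. Of 32851 promoter entries, 1.56% held TCACCCCA, 8.3% held TTCNNNGAA and 3.97% held TGATGNAA. Among list members with an entry, the sterol element stood in 2 of 22 cholesterol and fatty acid synthesis genes. The STAT palindrome stood in 3 of 19 IL-7 and STAT5 genes, namely Cish, Il7r and Socs3. The Atf4 element stood in 9 of 26 amino acid response genes, Asns and Trib3 among them. A match is a description of the letters, and 32 of the 49 genes that passed below had an entry.

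Values are log2 intensities as deposited, summarised per gene, so 1 unit is a doubling. Before any contrast, the 2 arrays of each control group stood apart from each other. Marrow array 1 read higher than marrow array 2 by over 3 log2 units in 72 genes and lower in 1. Among the 72 were macrophage genes: C1qa read 10.39 in marrow array 1 and 5.39 in marrow array 2, and Mertk read 9.63 and 3.81. The 21 monocyte and macrophage markers tested had a mean of 9.55 and 7.16 in these arrays. Culture array 2 read higher than culture array 1 by over 3 units in 18 genes and lower in 3, and its 20 neutrophil markers had a mean of 7.56 against 4.56. Which array of a pair is the odd one cannot be told from 2 arrays. Culture array 1 correlated at 0.9 and 0.948 with marrow control arrays 1 and 2, and culture array 2 at 0.927 and 0.966. List medians are also given without marrow array 1 and culture array 2 together, called the doubted arrays here for their macrophage and neutrophil genes. This alternative was chosen after seeing the data, leaves 1 array per control group and takes the spread from the deleted cells. In bulk RNA, fewer cells of a type and less RNA per cell cannot be told apart.

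The pro-B identity of the control cells was checked on 12 markers. In all 4 control arrays, 9 of the 12 lay above the 90th percentile of gene values. Vpreb1, part of the surrogate light chain, read 10.47 and 10.71 in marrow and 10.32 and 10.74 in culture. Cd79a, a signalling chain of the B-cell receptor, read 10.46 and 10.83 in marrow and 10.53 and 10.49 in culture. These groups overlap. Between culture and marrow 0 of the 12 passed in limma. At an unadjusted p under 0.05 were 3 of the 12, against 2111 of all 16050 genes. The 3 were Cd79b (0.80, SE 0.30), the transcription factor Pax5 (0.56, SE 0.18) and the receptor kinase Kit (-1.10, SE 0.34). Dntt, which adds bases at V(D)J joins, read 8.52 and 10.03 in marrow and 6.05 and 8.81 in culture, the widest spread among these markers.

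The transgene and the targeted gene were looked at in the same way. Bcl2 was read by 9 probesets, and its gene value was 5.2 and 6.02 in marrow and 5.17 and 5.58 in culture (difference -0.23, SE 0.30, adjusted p = 0.806 in limma). The groups overlap, so the label Bcl2-transgenic had no counterpart in this value. A single Bcl2 probeset with an unadjusted p under 0.05 read lower in culture, at 7.23 and 7.16 against 8.93 and 9.45 in marrow (-1.99, SE 0.34, adjusted p = 0.242). Whether the probesets cover the transgene's RNA is not given in the sources used here. Setdb1, the gene that is intact in all 4 control samples, was read by 23 probesets with 0 passed and 1 at an unadjusted p under 0.05. Its gene value was 7.02 and 6.67 in marrow and 6.84 and 6.46 in culture (difference -0.19, SE 0.21, adjusted p = 0.77).

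Of the 16050 genes tested in control cells, 26 rose in culture and 23 fell (limma, two-sided, Benjamini-Hochberg adjusted p under 0.05), which is 0.162% and 0.143% of all genes. The rises ran from 1.19 to 4.42 log2 units and the falls from -1.23 to -5.26. The 3 largest rises were those of Crhbp, Tgfb3 and Myl10, and the 3 largest falls were those of Ear2, Prg2 and Mpo. Without adjustment 1066 genes read higher and 1045 lower at p under 0.05, and the median difference over all genes was 0.01. Both culture arrays lay above both marrow arrays in 22.7% of all genes and below both in 19.7%.

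The count of 49 depended on the arrays in the fit. All 8 arrays share an estimate of the spread, and a control array left out also changes the means compared. With limma on the 4 control arrays alone it was 0, against 1559 genes at an unadjusted p under 0.05. It was 878 without marrow control array 2, 59 without marrow control array 1, 9 without culture control array 1 and 32 without culture control array 2. It was 9 without either marrow array of deleted cells and 33 without either cultured array of deleted cells. Without the pair of doubted arrays it was 63 (19 risen, 44 fallen), of which 20 were among the 49. Of the 49 genes, 49 passed without marrow control array 2, 32 without marrow control array 1, 7 and 15 without culture control array 1 and 2, 9 without either deleted marrow array and 27 without either deleted culture array. No gene among the 49 changed direction in the alternatives run.

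**Figure D1:**
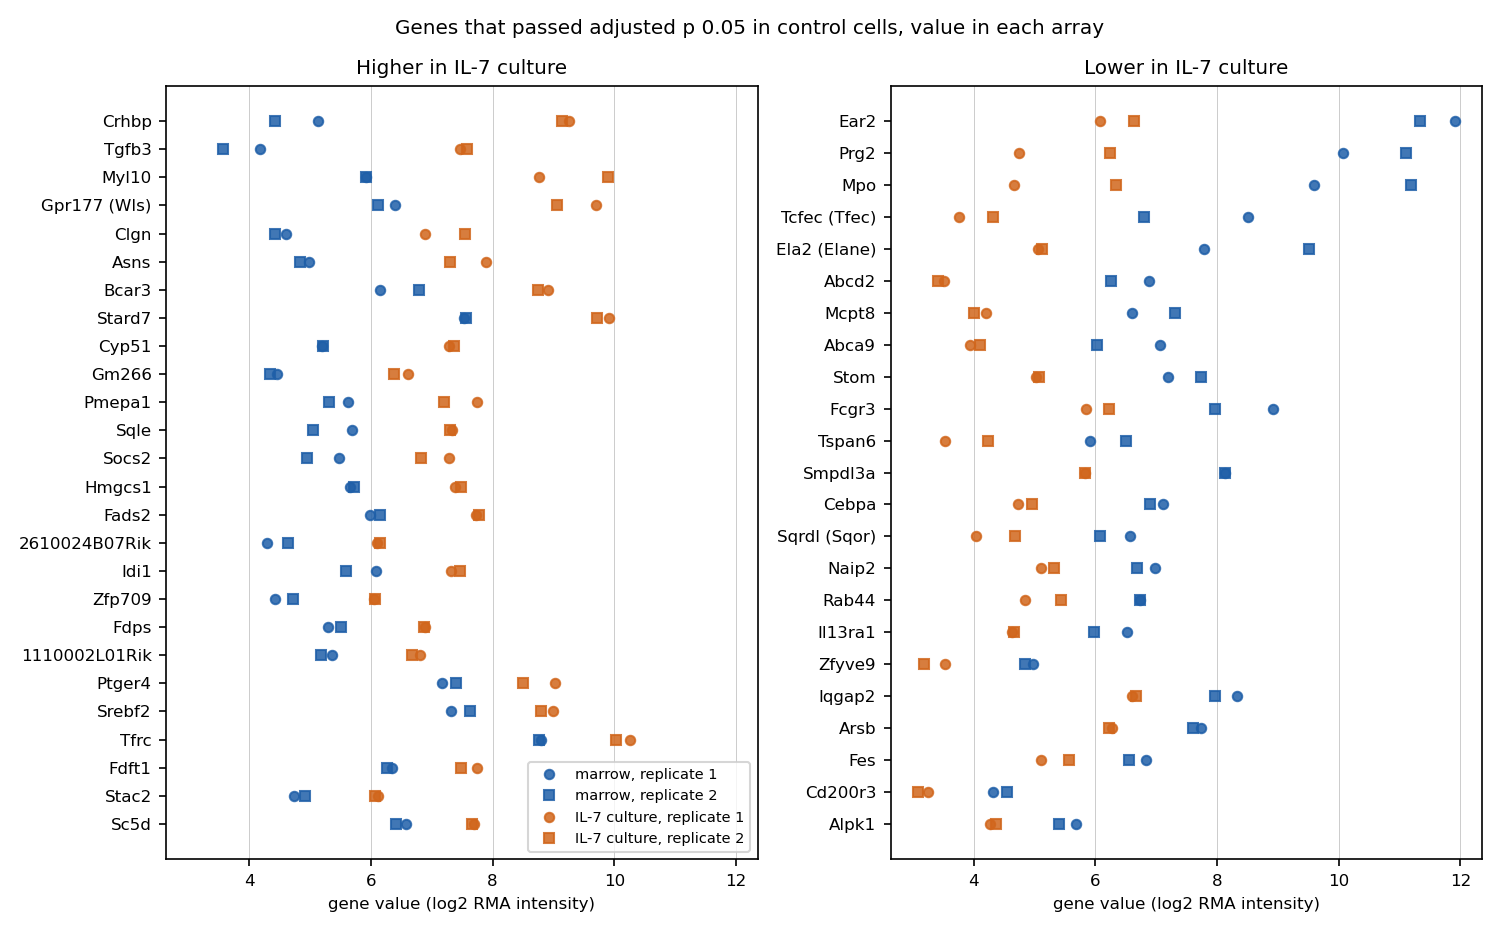
Values of the 49 genes that passed in control cells (log2 RMA intensity, horizontal axis) in each of the 4 control arrays, with genes that rose and genes that fell in separate panels and the arrays of each group drawn as points. In every row the 2 culture points lie on the same side of the 2 marrow points, farthest apart for Crhbp (rise of 4.42) and Ear2 (fall of 5.26).

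The largest rise was that of Crhbp, a secreted protein that binds corticotropin-releasing hormone. Crhbp read 5.13 and 4.43 in the marrow arrays and 9.26 and 9.14 in the culture arrays. The culture arrays were close to each other and far above both marrow arrays (4.42, SE 0.30, adjusted p = 0.00346 in limma). Tgfb3, a ligand of the TGF-beta family, read 4.18 and 3.58 in marrow, near the value of 4.03 under which genes were called dim, and 7.47 and 7.58 in culture (3.64, SE 0.23, adjusted p = 0.00276). Tgfb3 lay near the dim value in marrow and well above it in both culture arrays, so the size of its rise may be understated. Pmepa1, a gene that TGF-beta induces and that restrains its signalling, read 5.62 and 5.30 in marrow and 7.74 and 7.2 in culture (2.01, SE 0.21, adjusted p = 0.0175). Myl10, a myosin light chain, read 5.93 and 5.92 in marrow and 8.77 and 9.89 in culture (3.41, SE 0.32, adjusted p = 0.0134). The culture arrays differed by more than 1 unit here, yet both lay above marrow.

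Gpr177, now named Wls, carries Wnt proteins to the cell surface. It read 6.40 and 6.12 in marrow and 9.71 and 9.06 in culture (3.13, SE 0.22, adjusted p = 0.00346 in limma). Stard7, which carries phosphatidylcholine to mitochondria, read 7.53 and 7.56 in marrow and 9.91 and 9.71 in culture (2.27, SE 0.14, adjusted p = 0.00276). Its replicates were among the closest of the genes that rose. Clgn, a calnexin relative known from testis, rose by 2.70, the signalling adaptor Bcar3 by 2.36 and the predicted gene Gm266 by 2.10. Ptger4, the prostaglandin E2 receptor EP4, rose by 1.47. Zfp709, a zinc finger gene, rose by 1.49, 2610024B07Rik by 1.67, 1110002L01Rik by 1.48 and Stac2 by 1.26. Crhbp, Tgfb3, Gpr177 and Stard7 passed in 20 of the 21 alternatives run, all but the fit on the 4 control arrays alone. Stac2 and Zfp709 passed in 8, of 21 and 20.

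Of the gene lists, that of cholesterol synthesis held the most rises. Of the 30 cholesterol and fatty acid synthesis genes tested, 9 rose, 0 fell and 21 did not pass, where 0.162% of all genes rose. The list's median was 1.08, against 0.01 over all genes. Both culture arrays read above both marrow arrays in 24 of the 30 and below in 2, against 22.7% and 19.7% of all genes. The mean level of the 30 genes was 6.38 and 6.30 in the marrow arrays and 7.30 and 7.28 in the culture arrays. The means of the marrow arrays lay close on this list, but single members differed between them in both directions. Fads1 read 7.59 in marrow array 1 and 5.91 in marrow array 2, and Scd1 read 8.71 and 10.18.

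The regulator Srebf2 read 7.31 and 7.64 in marrow and 9.0 and 8.80 in culture, with no overlap (1.43, SE 0.16, adjusted p = 0.025 in limma). Hmgcs1, which opens the pathway by making HMG-CoA, read 5.66 and 5.72 in marrow and 7.39 and 7.48 in culture (1.74, SE 0.17, adjusted p = 0.0134). The replicates of Hmgcs1 lay within 0.1 of each other in both groups. The isoprenoid enzymes follow: Idi1, the isomerase of isopentenyl diphosphate, read 6.09 and 5.59 in marrow and 7.31 and 7.46 in culture (1.55, SE 0.22, adjusted p = 0.0462). Fdps, which makes farnesyl diphosphate, read 5.30 and 5.51 in marrow and 6.89 and 6.88 in culture (1.48, SE 0.14, adjusted p = 0.0134). None of these genes has arrays of the groups that overlap. Fdft1, or squalene synthase, read 6.34 and 6.27 in marrow and 7.75 and 7.48 in culture (1.31, SE 0.16, adjusted p = 0.029), again without overlap.

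Further down the pathway, Sqle, which epoxidises squalene, read 5.69 and 5.04 in marrow and 7.33 and 7.30 in culture (1.94, SE 0.27, adjusted p = 0.0462 in limma). Cyp51, which removes a methyl group from lanosterol, read 5.2 and 5.21 in marrow and 7.29 and 7.36 in culture (2.12, SE 0.22, adjusted p = 0.0155), the largest change of the list. Sc5d, a sterol desaturase, read 6.58 and 6.42 in marrow and 7.70 and 7.67 in culture (1.19, SE 0.14, adjusted p = 0.025). So the 9 that rose span the path from its regulator to its last steps, together with Fads2. Fads2, which desaturates fatty acids, read 5.98 and 6.15 in marrow and 7.73 and 7.78 in culture (1.69, SE 0.20, adjusted p = 0.0287). The 21 members that did not pass ran from -0.50 for Acss2, an acetyl-CoA synthetase (adjusted p = 0.379), to 1.93 for Scd2. Among them, Sc4mol (now Msmo1), the methyl oxidase that follows Cyp51, differed by 1.65 (adjusted p = 0.0622). The stearoyl-CoA desaturases Scd2 and Scd1 differed by 1.93 (adjusted p = 0.108) and 1.87 (adjusted p = 0.174). Insig1, which retains SREBP in the endoplasmic reticulum, differed by 1.39 (adjusted p = 0.163) and Fasn, or fatty acid synthase, by 0.98 (adjusted p = 0.0883). The SREBP1 gene Srebf1 differed by 0.33 (adjusted p = 0.402).

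The calls of the cholesterol list depended on single arrays while its differences did not. All 9 kept their direction in every alternative run, and the list's median lay between 0.906 and 1.149. With a block for the replicate number 4 of the 9 passed in limma, and 9 with the marrow control numbers swapped. In limma 0 of the 9 passed without culture control array 1, without culture control array 2, without both doubted arrays (adjusted p from 0.0737 to 0.134) and on the 4 control arrays alone. With marrow control array 1 left out 6 passed, with marrow control array 2 left out 9, with either deleted marrow array left out 1, and with either deleted culture array left out 4.

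**Figure D2:**
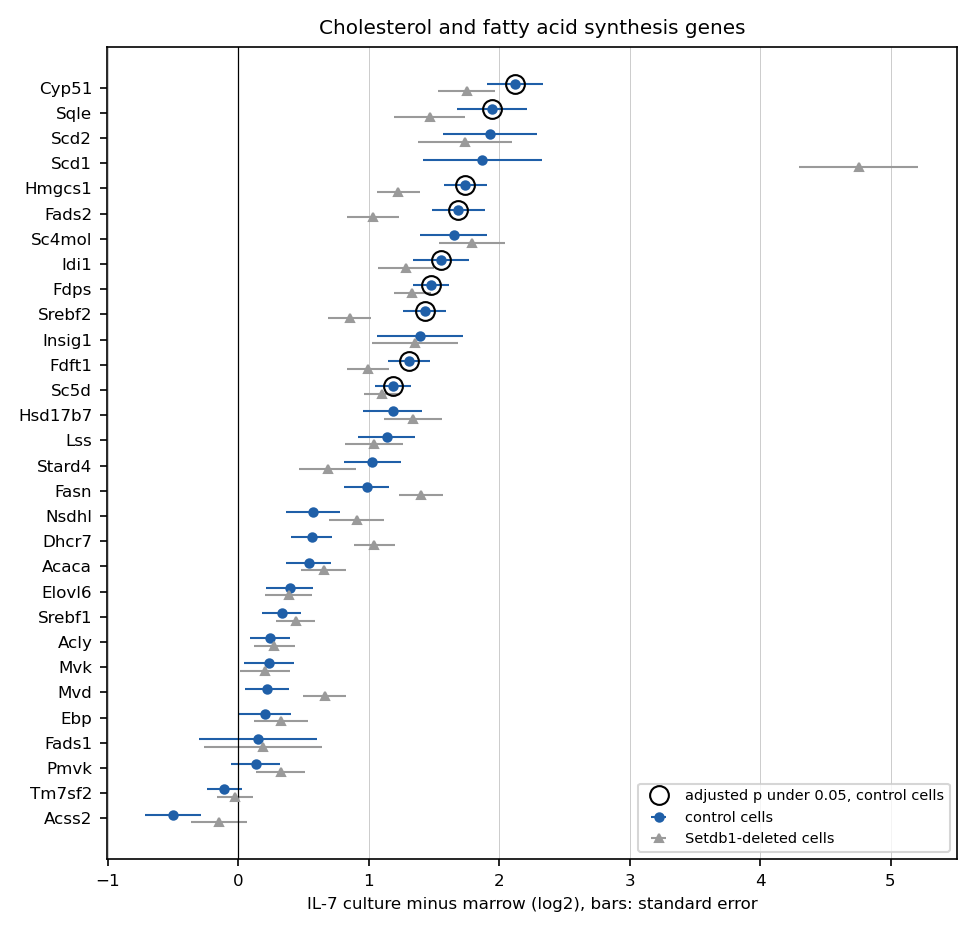
Difference between IL-7 culture and marrow (log2, horizontal axis, bars: standard error of the fit) for the 30 cholesterol and fatty acid synthesis genes tested, in control cells and in Setdb1-deleted cells. Nearly all points lie right of 0 in both genotypes, with Cyp51 at 2.12 in control cells and Scd1 at 4.76 in deleted cells as the farthest.

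Of the 26 IL-7 receptor, STAT5 and feedback genes, 1 rose and 0 fell, against 0.162% and 0.143% of all genes, with a median of 0.30 (0.351 without both doubted arrays). Both culture arrays read above both marrow arrays in 15 and below in 2, against 22.7% and 19.7% of all genes. The gene that rose was Socs2, a STAT5-induced inhibitor of cytokine receptors, at 5.47 and 4.95 in marrow and 7.28 and 6.82 in culture (1.84, SE 0.22, adjusted p = 0.029 in limma). The gap between the groups was wider than that between the replicates of either. Socs2 also passed without both doubted arrays (2.32, adjusted p = 0.0229). It did not without culture control array 1 (1.61, adjusted p = 0.193), without culture control array 2 (adjusted p = 0.0511) or without any deleted array (adjusted p = 0.0959 for either marrow and 0.064 for either culture array).

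The feedback inhibitor Cish, whose promoter is shown above, read 4.58 and 4.80 in marrow and 5.99 and 6.39 in culture (1.5, SE 0.22, adjusted p = 0.0523 in limma). The groups do not overlap, but the adjusted p lies just above 0.05, so Cish did not pass. The survival kinase Pim2 read 5.36 and 5.97 in marrow and 7.34 and 6.96 in culture (1.48, adjusted p = 0.0702), and Pim1 differed by 1.42 (adjusted p = 0.0883). Socs1 and Socs3, other feedback inhibitors, differed by 0.37 and 0.36, and Stat5a and Stat5b by 0.19 and 0.28. The receptor chain Il7r read 10.09 and 10.39 in marrow and 9.99 and 9.75 in culture (-0.37, SE 0.20, adjusted p = 0.498). Its lowest marrow array and its highest culture array lay closer together than the marrow replicates.

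Of the 33 Atf4 and amino acid response genes tested, 1 rose and 0 fell, against 0.162% and 0.143% of all genes, with a median of 0.41 (0.408 without both doubted arrays). Both culture arrays read above both marrow arrays in 19 and below in 2, against 22.7% and 19.7% of all genes. Asns, which makes asparagine and whose promoter is shown above, read 4.98 and 4.84 in marrow and 7.89 and 7.30 in culture (2.69, SE 0.24, adjusted p = 0.0111 in limma). The groups lay far apart. Asns passed without both doubted arrays (3.06, adjusted p = 0.0237), and did not without culture control array 1 (2.40, adjusted p = 0.0596) or either deleted marrow array (adjusted p = 0.0504). The amino acid carriers Slc38a2 and Slc1a4 differed by 1.08 (adjusted p = 0.191) and 0.79 (adjusted p = 0.174), and Shmt2, a serine-using mitochondrial enzyme, by 0.88 (adjusted p = 0.191). Atf4 itself differed by 0.41 (adjusted p = 0.34). Phgdh, the first enzyme of serine synthesis, differed by 0.24 (adjusted p = 0.725). Cebpb, a transcription factor that partners Atf4, read lower in both culture arrays, at 4.74 and 5.03 against 5.8 and 5.93 in marrow (-0.98, adjusted p = 0.174).

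Of 11 genes of iron uptake and storage, Tfrc, the transferrin receptor, rose, and 0 fell, against 0.162% and 0.143% of all genes. The list's median was -0.18 (-0.107 without both doubted arrays). Of the 11, 3 read higher in both culture arrays than in both marrow arrays and 3 lower, against 22.7% and 19.7% of all genes. At an unadjusted p under 0.05, 3 were higher and 2 lower, against 1066 and 1045 of all 16050 genes. Tfrc read 8.80 and 8.76 in marrow and 10.26 and 10.03 in culture (1.36, SE 0.17, adjusted p = 0.031 in limma). It also stands on the erythroid marker list, of which it was the sole member that passed. Its replicates were close in both groups. With a block for the replicate number Tfrc did not pass, and with the marrow control numbers swapped it did. Without both doubted arrays it differed by 1.5 (adjusted p = 0.0925), and it did not pass without marrow control array 1 (adjusted p = 0.0724), culture control array 1 (0.236) or culture control array 2 (0.0698), nor without either deleted marrow array (0.0925) or either deleted culture array (0.0583).

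The cell cycle lists held no gene that passed. Of 31 mitosis genes, 0 rose and 0 fell in limma, and 11 had an unadjusted p under 0.05, all lower in culture. Of the 16050 genes tested, 1045 were lower and 1066 higher at that level. Both culture arrays read below both marrow arrays in 27 of the 31 and above in 0, against 19.7% and 22.7% of all genes. The mitosis list's median was -0.28, between -0.381 and -0.217 in the alternatives and -0.28 without both doubted arrays. Kif23, a kinesin of cell division, read 9.11 and 8.86 in marrow and 8.32 and 8.39 in culture (-0.63, SE 0.16, adjusted p = 0.184), and Ccnb2, a mitotic cyclin, differed by -0.47 (adjusted p = 0.282). Mki67, the Ki-67 antigen of dividing cells, differed by -0.39 (adjusted p = 0.328). The differences are small, run the same way and fall short of the threshold. Of 40 DNA replication and nucleotide synthesis genes, 0 passed, 3 had an unadjusted p under 0.05 and the median was -0.20 (-0.205 without both doubted arrays). Tyms, or thymidylate synthase, read 8.23 and 8.26 in marrow and 7.22 and 7.63 in culture (-0.82, SE 0.18, adjusted p = 0.145). Of 32 ribosome biogenesis and Myc target genes 0 passed, with 2 at an unadjusted p under 0.05 and a median of 0.13. That median was -0.157 without marrow control array 2, -0.065 without culture control array 2 and 0.21 without both doubted arrays, so its sign is not settled.

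Of 26 p53 target genes, 0 passed in limma, and the median was 0.34 (0.345 without both doubted arrays). At an unadjusted p under 0.05 were 9 of them (8 higher, 1 lower). Of all 16050 genes tested, 2111 were at that level (1066 higher, 1045 lower). Ccng1, a cyclin induced by p53, read 8.25 and 7.85 in marrow and 9.26 and 9.06 in culture (1.11, SE 0.17, adjusted p = 0.0632). Cdkn1a, the p21 cell cycle inhibitor, read 7.60 and 7.91 in marrow and 8.83 and 9.13 in culture (1.23, SE 0.21, adjusted p = 0.0883). Neither gene overlapped between the groups. Of 14 BCL2 family genes, 0 passed, with 3 at an unadjusted p under 0.05 and a median of 0.05, which ran from -0.06 to 0.158 in the alternatives and was -0.019 without both doubted arrays. Bcl2l11, which encodes the death inducer Bim, read 6.57 and 6.59 in marrow and 8.30 and 7.57 in culture (1.36, SE 0.33, adjusted p = 0.174), and the related Bmf differed by 0.90 (adjusted p = 0.358). The survival gene Bcl2l1, or Bcl-xL, differed by 0.69 (adjusted p = 0.368).

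Genes of later B-cell stages did not pass either. Of 27 mature B-cell genes, 0 rose and 0 fell in limma, 10 had an unadjusted p under 0.05, all higher in culture, and the median was 0.59. Both culture arrays read above both marrow arrays in 15 and below in 3, against 22.7% and 19.7% of all genes. Il4i1, an amino acid oxidase, read 5.52 and 6.42 in marrow and 7.61 and 7.76 in culture (1.72, SE 0.28, adjusted p = 0.0706). Cd55, an inhibitor of complement, read 7.80 and 8.20 in marrow and 9.02 and 8.88 in culture (0.95, SE 0.17, adjusted p = 0.0989). The follicle-homing receptor Cxcr5 read 4.02 and 5.53 in marrow and 6.71 in both culture arrays (1.94, SE 0.42, adjusted p = 0.145). Ccr7, the receptor that guides cells to lymph nodes, differed by 1.71 (adjusted p = 0.142). Cxcr5 and Ccr7 had the lowest p of 31 homing, adhesion and chemokine receptor genes tested, of which 0 passed. That list went both ways, with a median of -0.12. In it 8 were higher and 8 lower at an unadjusted p under 0.05, where 1066 and 1045 of all 16050 genes tested were. Both culture arrays lay above both marrow arrays in 9 of the 31 and below in 10, against 22.7% and 19.7% of all genes. Marrow array 1 read lower than marrow array 2 in 25 of the 27 mature B-cell genes. The mature B-cell list's median was 0.166 without both doubted arrays, 0.114 without marrow control array 1 and 0.993 without marrow control array 2. The part of these arrays in the result was not tested.

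Among B-lineage transcription factors 0 of 35 passed in limma (9 unadjusted), with Bcl11a at 0.90 (adjusted p = 0.191) and Irf8 at 0.51 (adjusted p = 0.201). Their median was 0.22, and 0.092 without both doubted arrays. Over all 16050 genes tested, 2111 had an unadjusted p under 0.05 in limma. Of 21 genes of the surrogate light chain and pre-BCR signalling 0 passed (8 unadjusted), and the median of 0.31 was 0.096 without both doubted arrays and -0.044 with the median over brighter probesets. Pik3cd, the lymphocyte PI3-kinase, read 8.20 and 8.29 in marrow and 9.57 and 9.11 in culture (1.10, SE 0.18, adjusted p = 0.0768). Of 16 V(D)J recombination genes 0 passed and 1 each was higher and lower at an unadjusted p under 0.05. The recombinase gene Rag1 read 8.27 and 9.999 in marrow and 9.95 and 9.35 in culture, so its groups overlap. Of 30 immediate early genes 0 passed (16 unadjusted), with Fos (-1.79, adjusted p = 0.0933) and Fosb (-1.87, adjusted p = 0.143) the lowest p. Fos read 7.49 and 6.41 in marrow and 5.19 and 5.13 in culture, highest in marrow array 1. The medians of the V(D)J recombination and immediate early genes were -0.06 and -0.01, and -0.023 and -0.057 without both doubted arrays. Of 39 interferon response genes 0 passed (7 unadjusted), with Gbp3 at 1.24 (adjusted p = 0.168), and of 33 glycolysis and hypoxia genes 0 passed (7 unadjusted), with Vegfa at 1.02 (adjusted p = 0.111). Their medians were 0.06 and -0.01, and 0.185 and 0.015 without both doubted arrays.

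**Figure D3:**
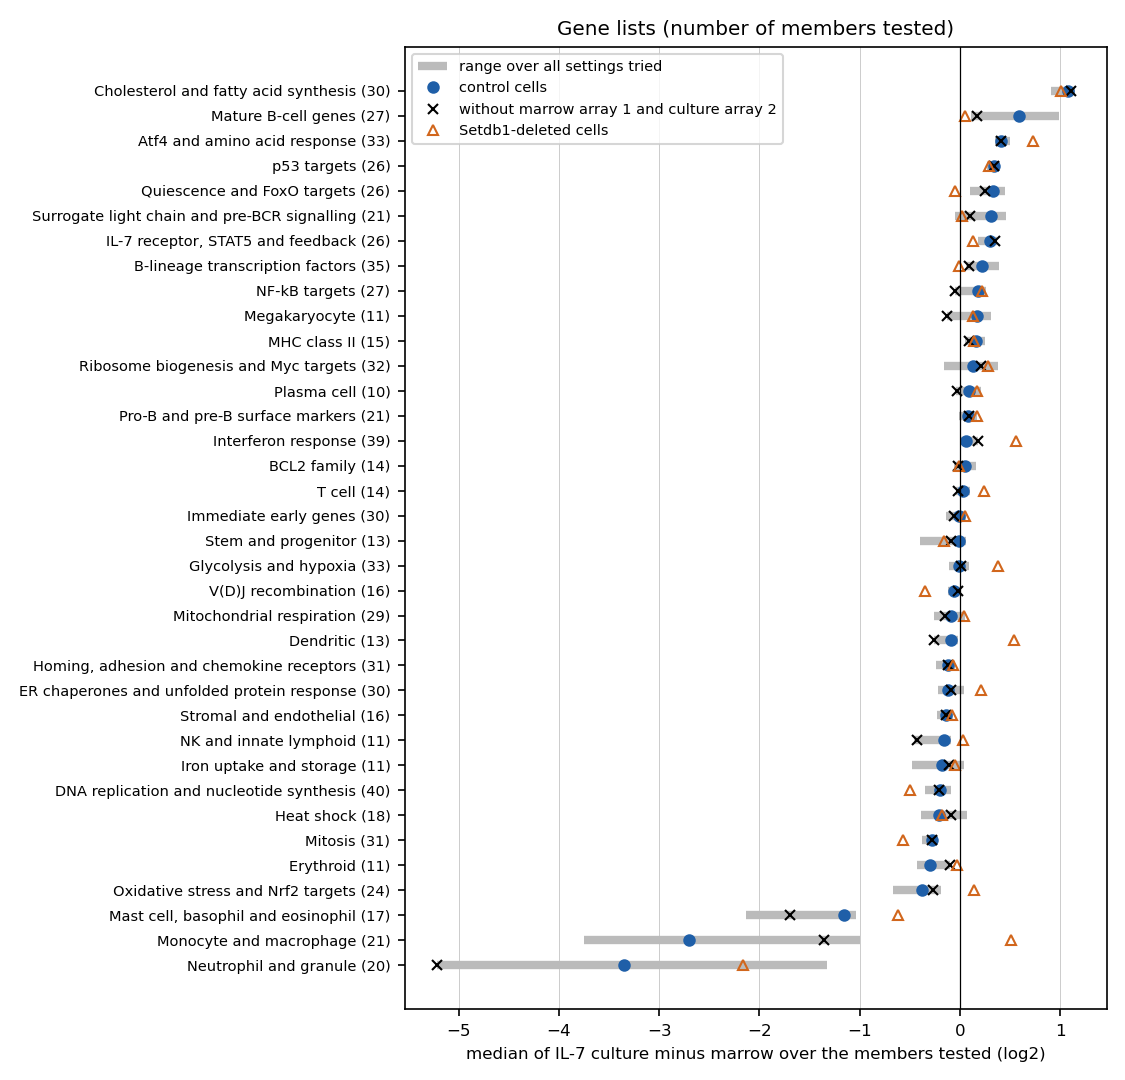
Median difference between IL-7 culture and marrow (log2, horizontal axis) over the members tested of each gene list, with the number tested in brackets, as filled circles for control cells and triangles for Setdb1-deleted cells. Crosses leave out marrow array 1 and culture array 2, and grey bars span the control cells' alternatives. In control cells the cholesterol list stands farthest right at 1.08, and the neutrophil (-3.35) and monocyte and macrophage (-2.70) marker lists stand farthest left.

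The 3 largest falls were those of genes for granule proteins, Ear2, Prg2 and Mpo. Of 17 mast cell, basophil and eosinophil markers tested, 3 fell and 0 rose, where 0.143% of all genes fell, with a median of -1.16. Both culture arrays read below both marrow arrays in 14 and above in 1, against 19.7% and 22.7% of all genes. The median was -2.136 with the filter at the 50th percentile. Prg2, the major basic protein of eosinophil granules, read 10.07 and 11.10 in marrow and 4.75 and 6.25 in culture (-5.08, SE 0.56, adjusted p = 0.0186 in limma). Ear2, an eosinophil ribonuclease, read 11.91 and 11.33 in marrow and 6.08 and 6.63 in culture (-5.26, SE 0.27, adjusted p = 0.00166). Ear2 has near-identical relatives and a single probeset, so which of them was read is uncertain. Mcpt8, a protease of basophils, read 6.60 and 7.32 in marrow and 4.21 and 4.0 in culture, the last below the dim value (-2.86, SE 0.31, adjusted p = 0.0185). The fall of Mcpt8 may thus be understated. Epx, the eosinophil peroxidase, and Prss34, a basophil protease, differed by -2.66 and -2.72 (adjusted p = 0.0523 for each).

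All 3 of these granule genes also passed without both doubted arrays (adjusted p from 0.00929 to 0.0433), where the list's median was -1.70. Without culture control array 1, Prg2 (-4.34, adjusted p = 0.0825) and Mcpt8 (-2.96, adjusted p = 0.12) did not pass. Mcpt8 did not pass without culture control array 2 either (adjusted p = 0.0704), and neither did Prg2 (0.0653) and Mcpt8 (0.0585) without either deleted marrow array. Ear2 passed with each array left out in turn.

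Of 20 neutrophil and granule markers, 2 fell and 0 rose, against 0.143% and 0.162% of all genes, with a median of -3.35. All 20 read lower in both culture arrays than in both marrow arrays, against 19.7% of all genes. Mpo, the myeloperoxidase of neutrophil precursors, read 9.60 and 11.19 in marrow and 4.67 and 6.33 in culture (-4.89, SE 0.69, adjusted p = 0.0469 in limma). Ela2, now Elane, the neutrophil elastase, read 7.78 and 9.52 in marrow and 5.06 and 5.12 in culture (-3.56, SE 0.51, adjusted p = 0.0484). Marrow array 2 was the higher for both. With a block for the replicate number 1 of Mpo and Ela2 passed, and 0 with the marrow control numbers swapped. Ms4a3, which marks granulocyte-monocyte precursors, differed by -2.58 (adjusted p = 0.0883), and Ctsg and Prtn3, serine proteases of primary granules, by -3.36 (adjusted p = 0.191) and -2.57 (adjusted p = 0.174). These 5 genes of the primary granules and their precursors had means of 7.36 and 9.09 in the marrow arrays and 4.55 and 5.12 in the culture arrays.

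The other 15 neutrophil markers gave another picture, with means of 9.33 and 9.37 in the marrow arrays, 4.56 in culture array 1 and 8.37 in culture array 2. S100a8, a calcium-binding protein abundant in neutrophils, read 12.31 and 12.46 in marrow, 5.68 in culture array 1 and 11.80 in culture array 2 (-3.65, SE 1.90, adjusted p = 0.472 in limma). Ngp, a granule protein of late precursors, read 11.07 and 10.88 in marrow, 3.74 in culture array 1 and 9.63 in culture array 2 (-4.29, adjusted p = 0.406). For these genes culture array 2 lay closer to marrow than culture array 1 did. At or below the dim value were 8 of the 20 markers in culture array 1 and 0 in culture array 2, and of the 15 markers 0 passed, with 4 at an unadjusted p under 0.05. The grouping into 5 and 15 was made after the values were seen. The list's median was -1.33 without culture control array 1. Without both doubted arrays it was -5.22, with Mpo at -6.52 and Ela2 at -4.46. Culture array 2 was doubted for these same neutrophil markers. Leaving it out therefore lowers the list's median by construction and is no check of it. Neither Mpo nor Ela2 passed without culture control array 1 (0.244 and 0.29), culture control array 2 (0.0513 and 0.125), either deleted marrow array (0.122 for both) or either deleted culture array (0.0796 and 0.0977).

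Of 21 monocyte and macrophage markers tested, 0 passed in limma, and the median was -2.70. At an unadjusted p under 0.05 were 13, all lower in culture, where 1045 of all 16050 genes were lower. Both culture arrays read below both marrow arrays in 15, against 19.7% of all genes. C1qa read 10.39 and 5.39 in marrow and 4.98 and 5.25 in culture (-2.78, SE 1.32, adjusted p = 0.425), so marrow array 2 lay close to culture. Vcam1, an adhesion molecule of marrow macrophages and stroma, read 12.04 and 6.37 in marrow and 4.59 and 5.22 in culture (adjusted p = 0.294). Here a single array carries most of the difference. Csf1r, the receptor for the macrophage growth factor, read 10.18 and 7.86 in marrow and 4.74 and 6.36 in culture (-3.47, adjusted p = 0.145), and Ccr2, a chemokine receptor of monocytes, read 8.82 and 9.65 in marrow and 4.68 and 7.22 in culture (-3.29, adjusted p = 0.145). Cx3cr1 and Clec4a3, other monocyte genes, differed by -1.99 (adjusted p = 0.0849) and -3.97 (adjusted p = 0.1). The list's median was -1.0 without marrow control array 1. Without both doubted arrays it was -1.36, with Csf1r at -3.12, Ccr2 at -4.97 and C1qa at -0.42. Marrow array 1 was doubted for macrophage genes of this list, so that median is no check of the list either.

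Several further genes that fell are known from myeloid cells. Cebpa, the transcription factor of granulocyte and monocyte precursors, read 7.11 and 6.90 in marrow and 4.73 and 4.96 in culture (-2.16, SE 0.29, adjusted p = 0.0423 in limma). Cebpa rests on 2 probesets. Its marrow arrays were close to each other, as were their neutrophil marker means (8.84 and 9.3), unlike their macrophage marker means (9.55 and 7.16). Fcgr3, a receptor for IgG, read 8.91 and 7.96 in marrow and 5.85 and 6.22 in culture (-2.40, SE 0.33, adjusted p = 0.0462). Tcfec, now Tfec, a transcription factor best known from macrophages, read 8.51 and 6.79 in marrow and 3.77 and 4.32 in culture (-3.61, SE 0.51, adjusted p = 0.0462), widely spread but without overlap. Il13ra1, a chain of the receptors for IL-4 and IL-13, fell by 1.59. Naip2, a sensor of bacterial proteins, fell by 1.62, and Cd200r3, a receptor of basophils and mast cells, fell too, with both culture arrays (3.25 and 3.08) below the dim value. The tyrosine kinase Fes fell by 1.35 and the kinase Alpk1 fell by 1.23. Without culture control array 1 the adjusted p was 0.263 for Cebpa, 0.29 for Fcgr3 and 0.29 for Tcfec, and without culture control array 2 it was 0.0942, 0.0942 and 0.0998. Without both doubted arrays it was 0.136, 0.0799 and 0.0343. Levels of the myeloid marker lists moved with these falls, and their part in them was not tested.

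The remaining falls were in genes of varied function. Abcd2, a peroxisomal transporter of very long fatty acids, read 6.88 and 6.25 in marrow and 3.52 and 3.42 in culture, both below the dim value (-3.10, SE 0.26, adjusted p = 0.0084 in limma). The dim value is the 25th percentile of gene values and not a measured background. Abca9, a related transporter, fell by 2.53, and the membrane protein Stom fell by 2.41. The tetraspanin Tspan6 fell by 2.32, and Smpdl3a, a secreted phosphodiesterase, fell by 2.30. Sqrdl, now Sqor, a mitochondrial enzyme that oxidises sulfide, fell by 1.96, and the lysosomal sulfatase Arsb fell by 1.41. The small GTPase Rab44 fell by 1.60, and the scaffold Iqgap2 fell by 1.52. The Smad anchor Zfyve9 also fell, with both culture arrays (3.53 and 3.18) below the dim value. For Abcd2, Cd200r3 and Zfyve9 the size of the fall is therefore uncertain. In all, 3 of the 49 genes had both culture arrays at or below the dim value, 7 had at least 1, and 6 rested on 1 or 2 probesets.

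**Figure D4:**
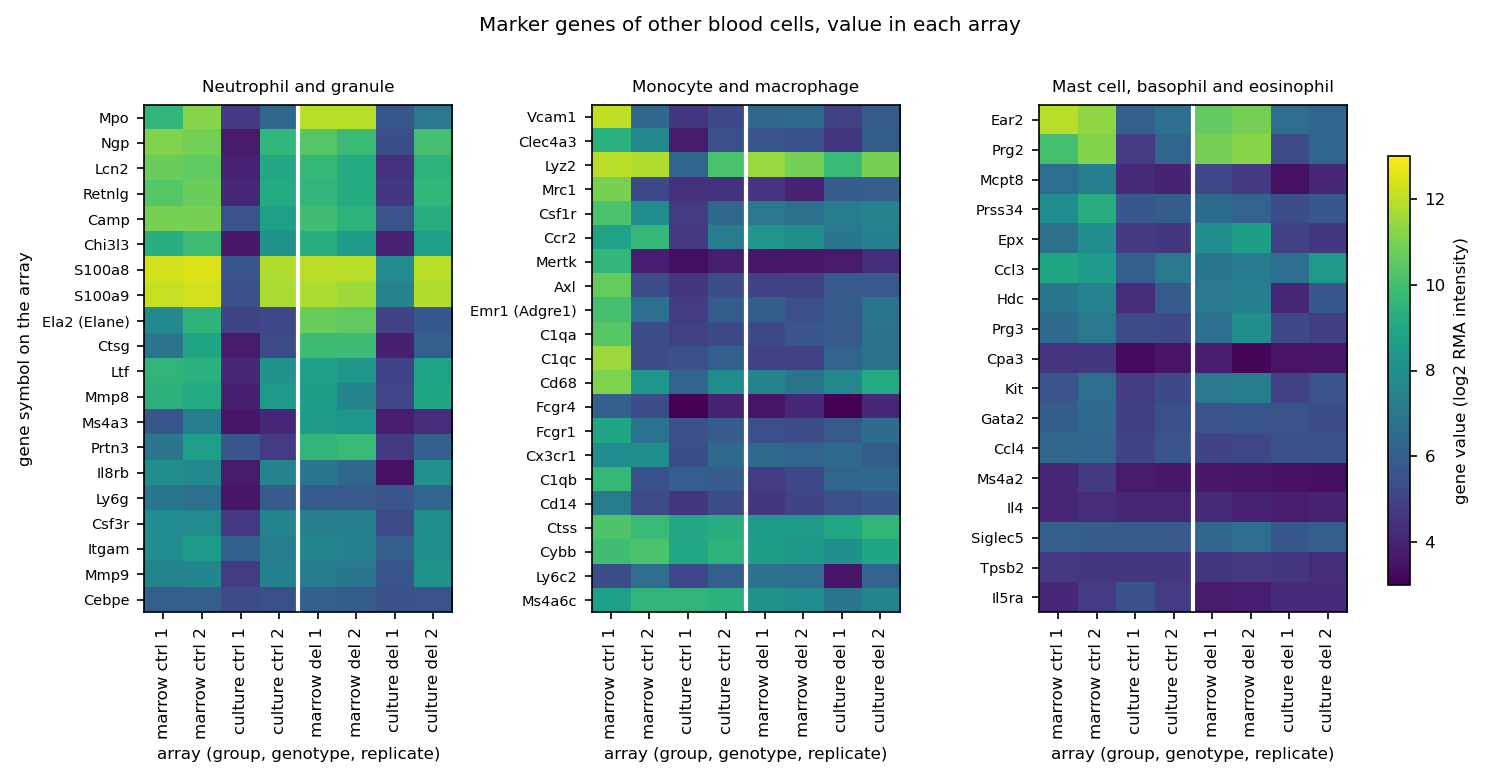
Values (log2 RMA intensity, colour scale) of neutrophil, monocyte and macrophage, and mast cell, basophil and eosinophil marker genes (rows) in each of the 8 arrays (columns). Marrow control array 1 is bright in macrophage genes such as C1qa (10.39 against 5.39 in array 2), and culture control array 2 is bright in neutrophil genes such as S100a8 (11.80 against 5.68 in array 1).

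Markers of other cells did not pass, apart from Tfrc on the erythroid list: 0 of 14 T cell, 11 NK and innate lymphoid, 13 dendritic, 11 megakaryocyte, 16 stromal and endothelial, 13 stem and progenitor, and 10 plasma cell markers. Without adjustment 1, 3, 4, 1, 4, 5 and 2 of them had a p under 0.05 in limma, where 2111 of all 16050 genes had. Thy1, found on T cells among others, read 6.25 and 6.55 in marrow and 6.89 and 8.23 in culture (1.16, adjusted p = 0.274). Sparc, a matrix protein of stroma, read 8.17 and 8.53 in marrow and 6.07 and 7.58 in culture (-1.53, adjusted p = 0.265). Nfe2, a megakaryocyte and erythroid transcription factor, read 6.16 and 6.47 in marrow and 4.53 and 4.98 in culture, without overlap (-1.56, SE 0.23, adjusted p = 0.0521). The erythroid gene Hbb-b1, a beta globin with near-identical copies, read 8.73 and 9.22 in marrow, 3.32 in culture array 1 and 7.49 in culture array 2, again high in the culture array with the neutrophil genes.

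The same comparison in Setdb1-deleted cells used 4 other arrays, and the contrasts share the estimate of the spread. Deviations of same-numbered arrays from their group means correlated at 0.337 between the control and deleted cultures. The contrasts may therefore not be fully independent, and a shared preparation was not tested. There 110 genes rose and 47 fell in culture (limma, adjusted p under 0.05), 0.685% and 0.293% of all genes. Of the 26 genes that rose in control cells, 18 also rose in deleted cells, which is 69.2% of the control list and 16.4% of the deleted list. Of the 23 that fell, 7 also fell, 30.4% and 14.9% of the lists. Both deleted culture arrays lay above both deleted marrow arrays in 25 of the 26 and below in 22 of the 23, against 19.3% and 24.6% of all genes. The count of 157 in deleted cells ranged from 1 without deleted marrow array 1 to 264 without either control marrow array, with 4 without deleted marrow array 2, 23 and 54 without deleted culture array 1 and 2, and 277 without both doubted arrays.

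Tgfb3 read 3.49 and 3.71 in deleted marrow cells and 9.04 and 8.67 in deleted cultured cells (5.26, SE 0.23, adjusted p = 0.000527 in limma). Its culture level was above that of both control culture arrays. Crhbp read 6.79 and 6.42 in deleted marrow cells and 9.83 and 9.12 in culture (2.87, SE 0.30), starting higher than in control marrow. Asns rose by 2.93 (SE 0.24, adjusted p = 0.00723), Pmepa1 by 2.02, Stard7 by 1.0 and Gpr177 by 1.62. Cish read 6.09 and 5.57 in deleted marrow cells and 7.91 and 7.99 in culture, and there it rose (2.12, SE 0.22, adjusted p = 0.0107). Socs2 read 7.0 and 7.01 in deleted marrow cells and 7.91 and 7.78 in culture and did not pass (0.84, adjusted p = 0.165). Of the 30 cholesterol and fatty acid synthesis genes, 11 rose in deleted cells, with a median of 1.01. Of all genes, 0.685% rose in deleted cells and 0.162% in control cells. Among the 11 were Cyp51 (1.75), Hmgcs1 (1.23), Fdps (1.33) and Scd1 (4.76, adjusted p = 0.0098 in limma). Scd1 read 5.77 and 5.22 in deleted marrow cells and 10.48 and 10.02 in culture, while control marrow cells already read 8.71 and 10.18. Of the 33 Atf4 and amino acid response genes 6 rose in deleted cells, against 0.685% of all genes, with a median of 0.73. Slc1a4, the carrier of alanine, serine and cysteine, rose there by 3.01 (SE 0.19, adjusted p = 0.00299), from 4.46 and 4.64 to 7.83 and 7.30.

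Among the falls, Prg2 (-5.28), Ear2 (-4.32), Mpo (-5.61) and Ela2 (-5.29) also fell in deleted cells (limma). The 5 primary granule genes had means of 10.09 and 10.07 in deleted marrow arrays and 4.60 and 5.81 in deleted culture arrays. In deleted cells 4 of the 5 fell, against 0.293% of all genes. The other 15 neutrophil markers had means of 8.71 and 8.35 in deleted marrow arrays and of 5.41 and 8.83 in deleted culture arrays, and 0 passed, with 1 at an unadjusted p under 0.05. Deleted culture array 2 was thus high in these markers, as was control culture array 2. The macrophage markers had means of 6.29 and 6.2 in deleted marrow arrays and 6.13 and 6.86 in culture, with a list median of 0.51 where control cells had -2.70. Il13ra1 read 4.84 and 4.80 in deleted marrow cells and 4.76 and 5.21 in culture (0.16, adjusted p = 0.874), the sole gene among the 49 whose difference had the other sign. Abca9 read 4.58 and 4.31 in deleted marrow cells, below its control marrow values of 7.07 and 6.03, and 4.05 and 3.85 in culture (-0.49, adjusted p = 0.635).

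A test of the difference between the genotypes called 0 of the 16050 genes in limma (lowest adjusted p = 0.309), with 1216 at an unadjusted p under 0.05. So a gene that passed in control cells and not in deleted cells, such as Socs2, Srebf2 or Mcpt8, is not shown to respond otherwise in the other genotype. This count was 461 without marrow control array 2, 3 without culture control array 2 and 8 without both doubted arrays.

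**Figure D5:**
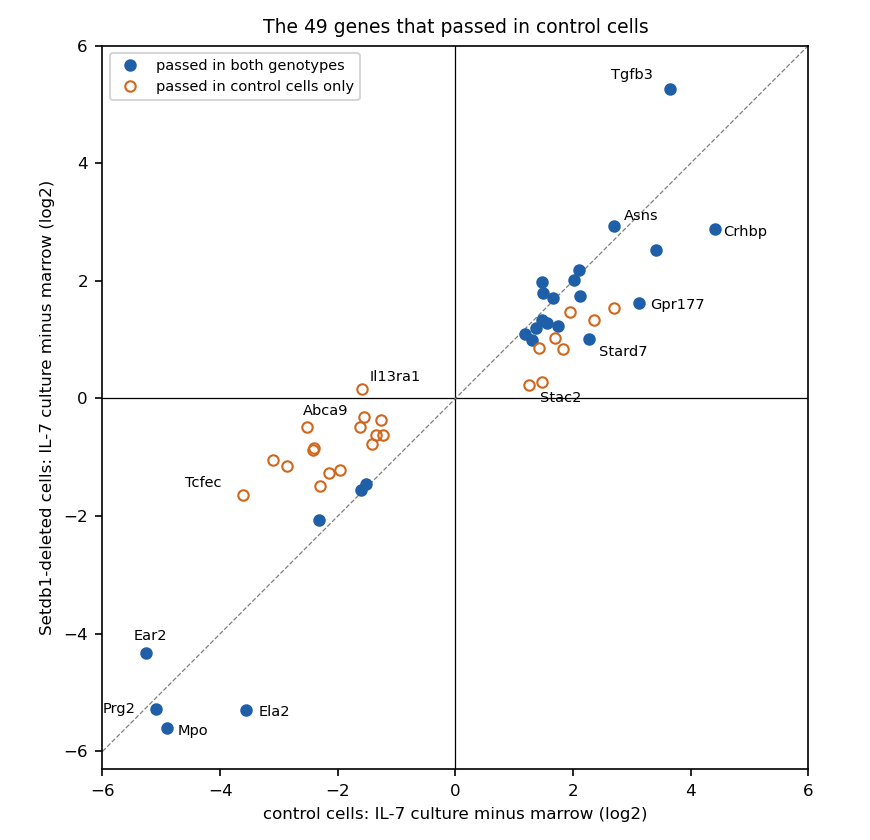
Difference between IL-7 culture and marrow (log2) in control cells (horizontal axis) and in Setdb1-deleted cells (vertical axis) for the 49 genes that passed in control cells, with filled points for those that passed in both genotypes. All 26 rises are positive on both axes and 22 of 23 falls are negative on both, Il13ra1 being the exception at 0.16.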

How the data were processed

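Gene expression of sorted mouse pro-B cells was measured on 8 Affymetrix arrays in 4 groups of 2. RNA was purified on Qiagen RNeasy columns, amplified with Nugen Ovation and labelled with Encore Biotin, per the labels' protocols. The deposited log2 values come from RMA in Affymetrix Expression Console 1.2.0.20 (background correction, quantile normalisation, summary of probes), per the submitters' processing notes; quantile normalisation sets the arrays to one distribution, so a change of total RNA is not seen. Of 241576 probesets, 212097 named 1 gene symbol, 4475 several and 25004 none. A gene's value was R's median polish over its 1-symbol probesets (median 8). Genes above the 25th percentile (4.03) in at least 2 arrays were tested. Limma 3.58.1 in R 4.3.3 fitted 4 group means to all 8 arrays, with empirical Bayes variances (4 residual and 3.53 prior degrees of freedom), two-sided tests and Benjamini-Hochberg adjustment over all genes at 0.05. The fit was tested on simulated data with independent noise of equal spread in every group. The arrays here differ from that setting. Replicates lay over 1 unit apart in 744 genes for marrow control cells and in 74 for deleted marrow cells. The number of arrays limits the precision.

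The members and lists were chosen with earlier results of these data known. Genes named are, in control cells, the 15 largest rises and 15 largest falls that passed, with at least 3 probesets and no overlap of the groups, up to 3 members per direction of a list that passed, or else 2 of lowest p, and Bcl2 and Setdb1. Any gene beyond this rule was picked with its values in view. Array symbols were matched to RefSeq (GRCm38.p6) for 17621 current symbols and 2790 synonyms, with 5 unmatched. Alternatives changed the probeset summary, filter, scaling, variance model, weights, block and arrays used.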

Additional observations from a re-analysis of the deposited data

Results flagged for a closer look

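Probesets without a gene symbol lay outside the comparison of named genes. Of 18093 such probesets bright enough to be tested, 8 passed an adjusted p of 0.05 in limma between IL-7 culture and marrow in control cells, 1 higher and 7 lower in culture, against 1620 at an unadjusted p under 0.05. Of 3224 probesets with several symbols 0 passed, with 298 unadjusted.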

How the results depend on the processing

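With 2 arrays per group, the spread is estimated over all groups, and with 1 control array left in a group that array is assumed to vary like the other groups. The 49 genes of the control comparison became 0 in the fit on the 4 control arrays alone and 28 with the replicate block (27 of the 49). Leaving out each array in turn gave 9 to 878. Nothing in the labels ties samples of the same number, and the deviations of same-numbered arrays from their group means correlated from -0.183 to 0.337 between groups, highest between the control and deleted cultures, so the samples were taken to share only a number. With the replicate block 4 of the 9 cholesterol genes and 1 of Mpo and Ela2 passed, and Tfrc did not (adjusted p = 0.0694). Crossed, with marrow control numbers swapped, it called 53 genes, 42 of them among the 49. These held the 9 cholesterol genes and Tfrc but 0 of Mpo and Ela2. The other alternatives (probeset summaries, filters, scalings, variance model, weights, longer median polish, without both doubted arrays) gave 39 to 66. The 157 genes of the deleted comparison became 244 with array weights and 277 without both doubted arrays, 120 with the replicate block, and 1 to 264 when each array was left out. The difference of the comparisons, 0 in limma, became 8 without both doubted arrays and 0 to 461 when each array was left out, and was 0 with the replicate block. The fit on the 4 control arrays was not run for these comparisons, which need the deleted arrays. No gene among the 49 turned its direction in any of 21 alternatives. Directions turned for 5 genes that did not pass. When arrays were left out, Bcl2 ran from -0.847 (both doubted arrays) to 0.177 (marrow control array 2), Setdb1 from -0.386 (culture control array 1) to 0.002 (culture control array 2) and 0.177 (both doubted arrays), Vpreb1 from -0.389 (both) to 0.064 (marrow control array 2) and 0.153 (culture control array 1), Cd79a from -0.318 (marrow control array 1) to 0.055 (marrow control array 2), and Rag1 from -0.351 (marrow control array 1) and -0.052 (both) to 1.382 (marrow control array 2). Vpreb1 read 0.080 with the mean of the probesets, 0.009 with centred arrays and 0.025 with quantile normalisation. The cause was not tested. Low values limit Abcd2, Cd200r3 and Zfyve9, whose culture arrays lie below the dim value.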
